A study of Mus musculus with 21 samples.

Results

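The glycolysis and hypoxia response genes described here are 38 genes chosen by symbol out of the 48321 symbols in each deposited count table. They comprise 2 glucose transporters, 14 glycolytic enzymes, 2 regulators of glycolytic flux, 6 genes of pyruvate and lactate handling, 4 genes of the hypoxia-inducible factors and the prolyl hydroxylases that act on them, and 10 known hypoxia targets. All 38 symbols were present. The filter on low counts was passed by 37 of them, and only these were tested. The exception was Adm, which encodes the peptide hormone adrenomedullin and was measured at 0.0827 to 0.651 CPM (counts scaled to the size of the library) over the 21 samples. A count of 3 corresponded to 0.188 to 0.451 CPM, so Adm was near the limit of detection in every group.

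The samples were embryoid bodies, aggregates in which mouse embryonic stem cells differentiate, collected on day 3. They address how TWIST1, a basic helix-loop-helix transcription factor, acts alone or joined to a partner; TCF3, TCF4 and TCF12 are E-proteins, the usual partners of TWIST1. The 7 groups of 3 samples were the parental A2loxCre line with doxycycline, the A2loxCre line carrying a TWIST1 monomer without doxycycline, the same line with doxycycline, and lines carrying a TWIST1 homodimer, a TWIST1-TCF3 dimer, a TWIST1-TCF4 dimer or a TWIST1-TCF12 dimer, each with doxycycline. All groups are labelled as strain C57BL/6, and all share the A2loxCre background, in which an integrated coding sequence is switched on by doxycycline. Induction lasted 16 hours. The labels give a single line for each construct, so the construct and the line that carries it cannot be told apart. The uninduced monomer line differs from the parental samples both in the integrated construct and in receiving no doxycycline. The labels do not say that the 3 samples of a group were separate cultures, so the p-values below measure the spread between these samples, which may be technical.

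Totals per sample ranged from 6648842 to 15999693 counts. Twist1 was at 4.39 to 8.94 CPM in the parental and uninduced samples and at 36.1 to 647 CPM in the induced lines. Its mean was 613 CPM in the induced monomer, 182 in the homodimer, 55.2 in the TCF3-labelled, 42.3 in the TCF12-labelled and 39.4 in the TCF4 libraries. Between induced lines, the kind of construct and the level of Twist1 RNA therefore cannot be told apart. Tcf4 was at 305 to 349 CPM with the TCF4 dimer and at 31.2 to 58.2 CPM elsewhere. Tcf3 was not higher in the libraries labelled TCF3 dimer (151 to 159 CPM) than in the parental samples (162 to 173 CPM), and Tcf12 overlapped between the TCF3-labelled and the TCF12-labelled libraries. These 2 groups are therefore named by their labels throughout. Sample 1 labelled TCF12 dimer stood apart from the other 2 samples of its group. Without it, the common biological coefficient of variation fell from 0.120 to 0.0539, so the tests are given with and without this library where the count of calls moves. Pluripotency and epiblast markers, a list of 7 genes, summed to 4036 to 4146 CPM in the parental samples, 3567 to 3672 in the uninduced monomer, 2939 to 3122 in the induced monomer, 2941 to 2968 in the homodimer, 2964 to 3028 in the TCF4, 2147 to 2777 in the TCF12-labelled and 1959 to 2202 in the TCF3-labelled libraries. Against the parental samples 2, 3, 4, 5, 5 and 4 of the 7 were lower in that order of groups, and 2, 2, 2, 0, 1 and 1 higher. Their part in the results below was not tested. Primitive streak and mesoderm markers, a list of 6 genes, summed to 169 to 202 CPM in the parental samples and to 33.3 CPM ± 4.4 (SD, n = 3) in the uninduced monomer line, the highest of the other groups. Mesp1 had no count in any homodimer sample.

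Cells that lack oxygen stabilise the hypoxia-inducible factors HIF1A and EPAS1 (HIF2A), which are otherwise hydroxylated by the prolyl hydroxylases EGLN1 and EGLN3 and degraded. The stabilised factors bind the core A/GCGTG with their partner ARNT and switch on genes of glucose uptake, glycolysis, angiogenesis, collagen hydroxylation and mitophagy. Pluripotent cells and early embryos depend strongly on glycolysis, and the choice between glucose transporters and enzyme isoforms changes as cells differentiate.

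The promoters of Ddit4, P4ha1, P4ha2 and Bnip3 are shown because these hypoxia targets had the largest spans between group means after Vegfa and recur in the results below. Vegfa has 2 RefSeq promoters, with 2 cores and 0 cores, which are not printed. Each line gives the 250 bases before the annotated start, 5′ to 3′ on the gene's strand, from RefSeq (build GRCm38.p6). Capitals mark the hypoxia core ACGTG or GCGTG, or the reverse complements CACGT and CACGC, which are the core on the other strand. P4ha1 is at chr10:59323046-59323295 (plus strand), P4ha2 at chr11:54100674-54100923 (plus strand), Bnip3 at chr7:138909507-138909756 (minus strand) and Ddit4 at chr10:59951771-59952020 (minus strand).
P4ha1: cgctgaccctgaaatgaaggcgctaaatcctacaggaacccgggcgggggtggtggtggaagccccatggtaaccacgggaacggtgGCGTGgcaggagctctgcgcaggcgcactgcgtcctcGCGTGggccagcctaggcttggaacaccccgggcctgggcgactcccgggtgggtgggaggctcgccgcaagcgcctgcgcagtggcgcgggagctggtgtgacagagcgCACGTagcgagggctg
P4ha2: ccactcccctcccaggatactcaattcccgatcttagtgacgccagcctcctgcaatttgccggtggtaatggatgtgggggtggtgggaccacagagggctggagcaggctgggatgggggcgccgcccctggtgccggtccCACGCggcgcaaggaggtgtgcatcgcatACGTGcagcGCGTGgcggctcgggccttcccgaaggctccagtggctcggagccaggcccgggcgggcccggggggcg
Bnip3: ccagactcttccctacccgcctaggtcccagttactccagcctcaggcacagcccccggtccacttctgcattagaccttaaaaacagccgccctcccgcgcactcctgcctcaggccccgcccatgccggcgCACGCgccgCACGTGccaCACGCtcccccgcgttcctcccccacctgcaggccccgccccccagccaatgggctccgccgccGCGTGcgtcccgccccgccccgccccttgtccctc
Ddit4: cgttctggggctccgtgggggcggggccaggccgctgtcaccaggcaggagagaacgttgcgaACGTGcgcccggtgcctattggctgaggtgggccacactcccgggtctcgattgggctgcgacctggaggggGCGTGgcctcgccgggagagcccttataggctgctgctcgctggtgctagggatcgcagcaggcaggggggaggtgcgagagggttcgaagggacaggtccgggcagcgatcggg
P4ha1 and P4ha2 held 3 cores each, Bnip3 5 and Ddit4 2. The E-box CANNTG, the element bound by TWIST1 and E-proteins, was found 2 times in the Bnip3 promoter and 0 times in the other 3. A CACGTG, as in Bnip3, counts as a core on both strands and as an E-box. RefSeq promoters were matched for 35 of the 38 genes, 51 promoters in all, and 42 of these (82.4%) held at least 1 core, against 38.6% of all 32851 promoters of the same length. At least 3 cores were found in 12 member promoters (23.5%), against 6.58% of all. An E-box was found in 58.8% of the member promoters and in 66.2% of all. These matches describe letters in a window and are not binding sites; base composition was not matched.

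Across the 7 groups, 29 of the 37 tested members changed (edgeR's quasi-likelihood F test, Benjamini-Hochberg adjusted p under 0.05), where 50.7% of all 14311 tested genes were called. Without sample 1 labelled TCF12 dimer the count was 34, where 73.4% of all tested genes were called. The members did not move as a block. Of all 38 genes, 24 had the highest mean in 1 of the 2 states of the monomer line (13 uninduced, 11 induced). The lowest mean was that of the TCF4 dimer for 16 genes and of the TCF12-labelled libraries for 8. Without sample 1 labelled TCF12 dimer, these counts of lowest means were 15 and 11. Highest and lowest means were not counted over all tested genes, so these counts are not read as a trait of the members. The largest spans between the highest and the lowest group mean were 5.42-fold for Epas1 and 5.40-fold for Vegfa, followed by 3.77-fold for Slc2a3, 2.99-fold for Ddit4 and 2.86-fold for P4ha1. The smallest span among the tested members was that of Eno1, at 1.21-fold.

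Against the parental samples, the members went in opposite directions in different lines. The uninduced monomer line had 13 members higher and 2 lower (10.5% of all tested genes were higher and 9.43% lower), and the induced monomer line had 14 higher and 3 lower (10.8% and 9.22%). The homodimer line had 2 higher and 6 lower (4.81% and 4.02%). Of the members, 10 were higher and 3 lower in the TCF3-labelled libraries (16.3% and 12%), 2 and 10 in the TCF4 dimer line (7.18% and 5.67%), and 4 and 12 in the TCF12-labelled libraries (15.5% and 11.5%). The median log2 fold change of the 37 members was 0.20 in both states of the monomer line, 0.04 in the homodimer, 0.11 in the TCF3-labelled, -0.20 in the TCF4 and -0.03 in the TCF12-labelled libraries. Without sample 1 labelled TCF12 dimer the last of these was -0.15. Over all tested genes these medians lay between 0.00 and 0.02. Without sample 1 labelled TCF12 dimer, the counts higher and lower were 18 and 4 in the uninduced monomer (36.8% of all tested genes called in either direction), 18 and 6 in the induced monomer (35.2%), 6 and 8 in the homodimer (20.4%), 16 and 7 in the TCF3-labelled (46.5%), 3 and 22 in the TCF4 (28.1%) and 4 and 16 in the TCF12-labelled libraries (30.3%). In the induced monomer, leaving out parental sample 1 or 2 or monomer sample 1 or 3 left 10 or 11 called members in place of 17. Of all tested genes, 2192 to 2364 were called in these fits, in place of 2861. All 6 comparisons share the same 3 parental samples. In such bulk samples, fewer cells of a type and less RNA per cell cannot be told apart.

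**Figure D1:**
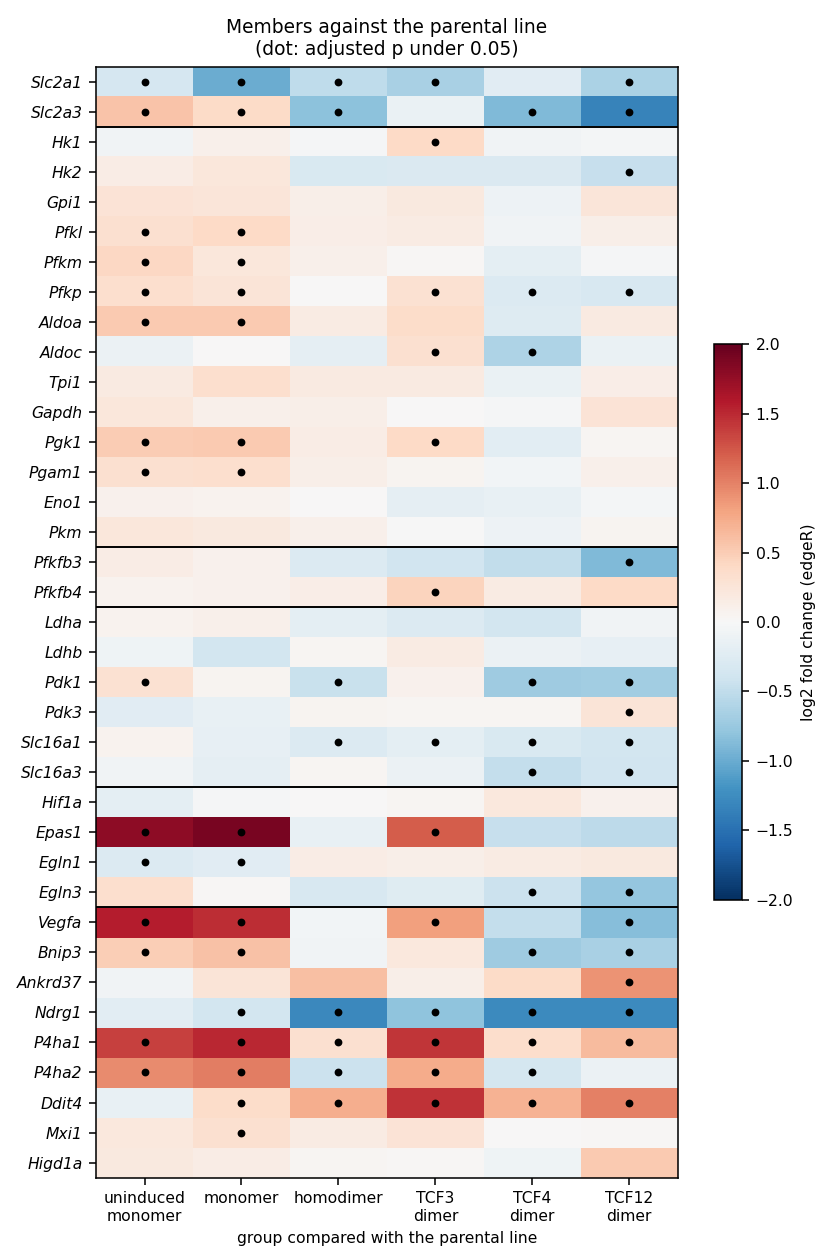
Log2 fold change against the parental line (colour, from -2 to 2) for the 37 tested genes (rows, in role groups separated by lines) in the other 6 groups (columns), with a dot where edgeR's adjusted p is under 0.05. Epas1, Vegfa, P4ha1 and P4ha2 are higher in the first 2 columns and in the TCF3-labelled libraries, and Ddit4 is higher in the 5 induced columns alone.

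Among the factors and their hydroxylases, Epas1 differed most between lines, and Hif1a did not pass the test against the parental samples in any line. Epas1 was at 13.95, 14.5 and 18.8 CPM in the parental samples, at 55.2, 56.9 and 51.9 CPM in the uninduced monomer line and at 59.2, 57.6 and 59.4 CPM in the induced monomer line. The TCF3-labelled libraries were in between, at 32.7, 34.5 and 42.0 CPM, and overlapped with no other group. The homodimer (12.9 to 16.0 CPM), TCF4 dimer (11.5 CPM ± 0.44, SD, n = 3) and TCF12-labelled libraries (5.98, 12.7 and 13.8 CPM) were at or below the parental level, with sample 1 the lowest of the TCF12-labelled group. The log2 fold change was 1.79 ± 0.18 (SE; edgeR adjusted p = 8.9e-07) in the uninduced monomer, 1.90 ± 0.18 (3.5e-07) in the induced monomer and 1.21 ± 0.18 (5.4e-05) in the TCF3-labelled libraries. Induction of the monomer moved Epas1 by 0.11 ± 0.17 (edgeR adjusted p = 1). Per kilobase of exon, Epas1 made up 21.5% ± 1.4 (SD, n = 3) of the summed Hif1a and Epas1 level in the uninduced monomer. This share was 4.17% ± 0.07 in the TCF4 dimer line, against 6.46% ± 1.06 in the parental samples. Here and below, the length joins all annotated exons of a gene and may exceed that of the transcript expressed. Which of 2 genes has the larger share is therefore uncertain.

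Hif1a itself stayed between 202 and 296 CPM in all samples except sample 1 labelled TCF12 dimer, which was at 183 CPM. Without that library, Hif1a was 0.20 lower on the log2 scale in the uninduced monomer (edgeR adjusted p = 0.00086) and higher by 0.21 in the TCF4 (0.0006) and 0.28 in the TCF12-labelled libraries (6.3e-05). The hydroxylases moved apart. Egln1 was lower in both states of the monomer line, by 0.28 ± 0.07 uninduced (edgeR adjusted p = 0.011) and 0.23 ± 0.07 induced (0.032), and the latter call was lost when any 1 of the 3 monomer samples, or parental sample 1 or 2, was left out. Egln3, itself a hypoxia target, was lower in the TCF4 (-0.43 ± 0.12, edgeR adjusted p = 0.024) and TCF12-labelled libraries (-0.78 ± 0.13, 0.00015), where it was at 9.49 to 10.1 and 7.24 to 8.07 CPM against 11.8 to 15.2 CPM in the parental samples. Neither group overlapped with the parental samples.

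The collagen prolyl 4-hydroxylase subunits P4ha1 and P4ha2, whose promoters are shown above, were highest in the same 3 groups. P4ha1 was at 32.5, 30.8 and 34.4 CPM in the parental samples, and at 85.1, 87.0 and 80.1 CPM in the uninduced monomer, 86.3, 101 and 91.8 CPM in the induced monomer and 82.9, 87.4 and 93.0 CPM in the TCF3-labelled libraries. The homodimer (37.6 to 44.4 CPM), TCF4 (39.6 to 44.5 CPM) and TCF12-labelled libraries (46.2 to 53.7 CPM) were above the parental samples as well, with no overlap. P4ha1 was thus higher in all 6 groups, from 0.32 ± 0.09 in the homodimer (edgeR adjusted p = 0.028) to 1.51 ± 0.09 in the induced monomer (8e-10). The homodimer call was lost without sample 1 or 3 of its own group, or without parental sample 1 or 2, and the TCF4 call (0.35 ± 0.09, 0.011) without its sample 2 or parental sample 2. P4ha2 was at 16.6 to 18.7 CPM in the parental samples, 32.7 to 36.6 CPM in the uninduced monomer, 35.5 to 36.9 CPM in the induced monomer and 28.2 to 31.6 CPM in the TCF3-labelled libraries. It was lower than parental in the homodimer (12.4 to 13.8 CPM, -0.43 ± 0.10, edgeR adjusted p = 0.0081) and TCF4 libraries (13.0 to 15.1 CPM, -0.35 ± 0.10, 0.020). The P4ha2 gene lies on chromosome 11 (54100095 to 54131665, plus strand, GRCm38), where 30.3% of 1117 tested genes were higher in the TCF3-labelled libraries, against 15.3% of 12792 on other chromosomes. The lactate transporter gene Slc16a3, also on chromosome 11 (120948480 to 120960868, plus strand), did not pass in these libraries in either direction. The part of the chromosome in the level of P4ha2 was not tested. P4ha1 lies on chromosome 10 (59323296 to 59373304, plus strand).

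Vegfa, the main angiogenic growth factor, was low throughout and was highest in the same 3 groups as Epas1. It was at 7.41, 6.29 and 6.96 CPM in the parental samples, 17.1 to 23.8 CPM in the uninduced monomer, 19.3, 19.2 and 18.7 CPM in the induced monomer and 10.5, 12.1 and 13.9 CPM in the TCF3-labelled libraries. It was 3.15, 3.61 and 4.52 CPM in the TCF12-labelled libraries, below every parental sample. The log2 fold changes were 1.57 ± 0.15 (edgeR adjusted p = 4.5e-07), 1.47 ± 0.15 (9.4e-07), 0.82 ± 0.16 (0.00049) and -0.86 ± 0.18 (0.0015) in that order. Bnip3, a mitophagy receptor, was at 22.5 to 28.1 CPM in the parental samples, 32.6 to 41.3 CPM in the uninduced and 37.0 to 41.7 CPM in the induced monomer, and 13.1 to 17.9 CPM in the TCF4 and 15.1 to 17.1 CPM in the TCF12-labelled libraries. It was higher by 0.49 ± 0.12 (edgeR adjusted p = 0.0051) and 0.59 ± 0.12 (0.0011) in the 2 states of the monomer line, and lower by 0.71 ± 0.12 (0.00039) and 0.65 ± 0.12 (0.00063) in the TCF4 and TCF12-labelled libraries.

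The markers of primitive endoderm, an extraembryonic lineage, were highest in the groups where Epas1, Vegfa, P4ha1 and P4ha2 were highest. P4ha1 was also above the parental samples in the homodimer, TCF4 and TCF12-labelled libraries, where most of the markers were lower. All 7 of 7 (Gata4, Gata6, Sox17, Sox7, Dab2, Pdgfra and Cubn) were higher in the uninduced monomer, the induced monomer and the TCF3-labelled libraries, and 6 of 7 were lower in the homodimer, TCF4 and TCF12-labelled libraries. The exception in the TCF12-labelled libraries was Pdgfra, which was higher there (0.80 ± 0.15, edgeR adjusted p = 0.00053). Their summed level was 329 CPM ± 21.6 (SD, n = 3) in the parental samples, 1287 to 1624 CPM in the uninduced monomer, 1269 to 1415 CPM in the induced monomer and 629 to 888 CPM in the TCF3-labelled libraries, against 205 to 246, 158 to 163 and 136 to 186 CPM in the homodimer, TCF4 and TCF12-labelled libraries. None of the 7 was at 0 in any sample. The part of these cells in the levels of Epas1, Vegfa, P4ha1, P4ha2 and Bnip3 was not tested. Markers of hemangiogenic cells, a list of 6 genes, were highest in the TCF3-labelled libraries (summed 46.6 to 57.3 CPM, against 20.8 to 24.0 CPM in the parental samples), and 5 of 6 were higher there.

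**Figure D2:**
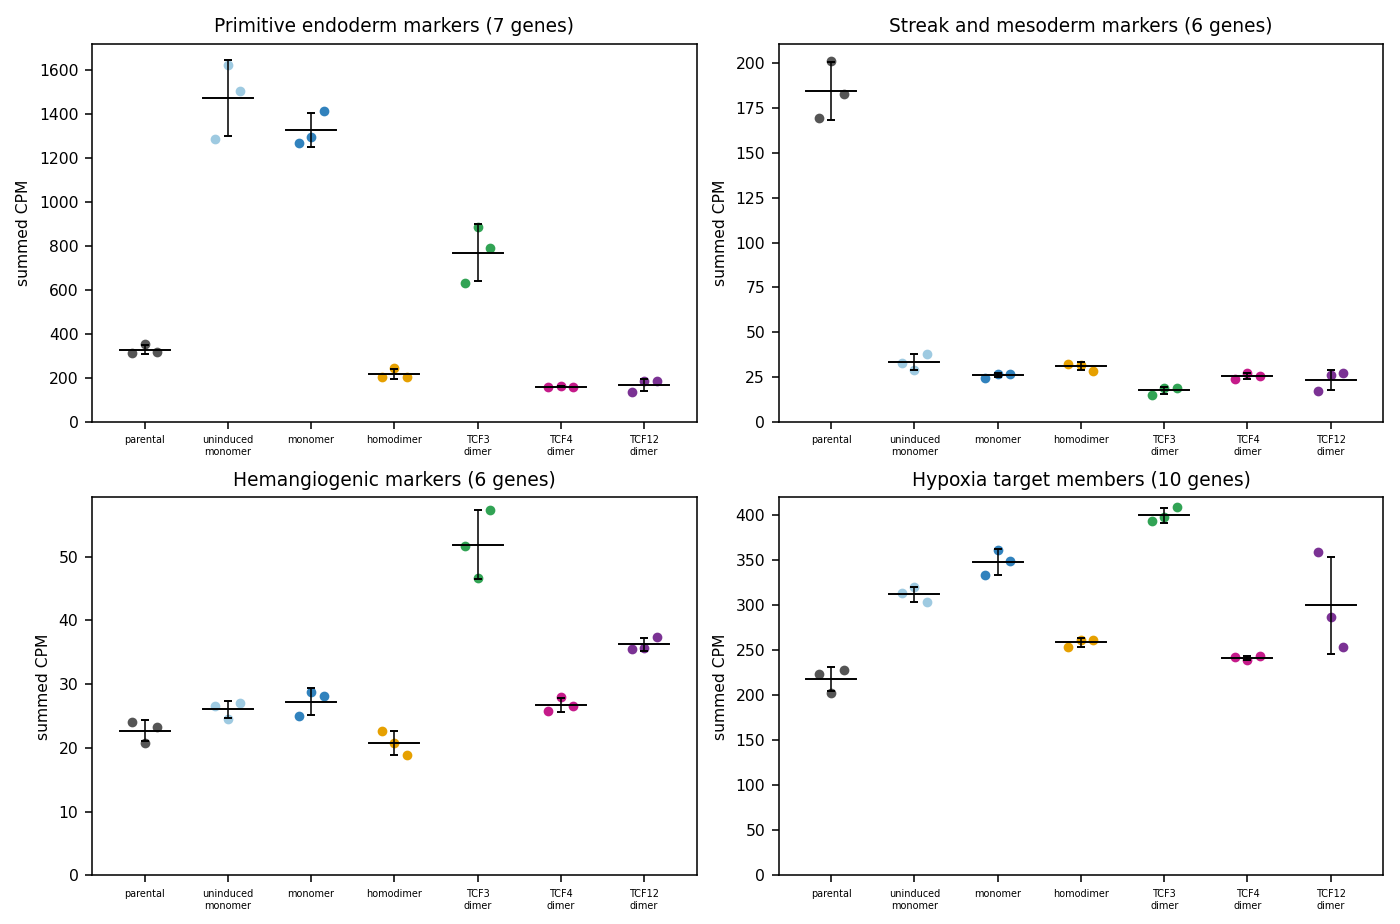
Summed CPM in each sample (points), with the mean (line) and SD (bar) of the 3 samples in each group, for the primitive endoderm, streak and mesoderm, and hemangiogenic markers and for the 10 hypoxia target members. The primitive endoderm sum is highest in the 2 states of the monomer line (1269 to 1624 CPM), and the hypoxia target sum is highest in the TCF3-labelled libraries (393 to 409 CPM).

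Ddit4 followed another pattern. It encodes REDD1, a stress-induced inhibitor of mTORC1 signalling. It was at 62.5, 58.8 and 62.6 CPM in the parental samples and at 57.1, 54.6 and 54.7 CPM in the uninduced monomer, and higher in each of the 5 induced lines. The induced monomer was at 74.2, 78.7 and 84.7 CPM, the homodimer at 102, 102 and 99.1 CPM, the TCF4 dimer at 96.3, 92.6 and 108 CPM, the TCF12-labelled libraries at 148, 120 and 102 CPM and the TCF3-labelled libraries at 167, 167 and 164 CPM. No induced sample overlapped with a parental or an uninduced sample, and the TCF3-labelled libraries were above every other sample. The log2 fold change against the parental samples ran from 0.37 ± 0.10 (induced monomer, edgeR adjusted p = 0.011) through 0.69 ± 0.10 (TCF4, 5.9e-05), 0.72 ± 0.10 (homodimer, 5.2e-05) and 1.01 ± 0.10 (TCF12-labelled, 4e-07) to 1.44 ± 0.10 (TCF3-labelled, 2.7e-09). It was -0.14 ± 0.10 in the uninduced monomer (edgeR adjusted p = 0.37). The summed level of the 10 hypoxia targets, to which Ddit4 contributed these values, was 393 to 409 CPM in the TCF3-labelled libraries and 203 to 228 CPM in the parental samples.

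Ndrg1, a hypoxia- and differentiation-responsive gene, had its highest mean in the parental samples, at 9.37, 8.46 and 9.99 CPM. It was at 3.56 to 3.91 CPM in the homodimer, 3.59 to 4.28 CPM in the TCF4, 3.57 to 4.10 CPM in the TCF12-labelled and 4.46 to 5.94 CPM in the TCF3-labelled libraries. None of these 12 samples reached a parental level. The log2 fold changes were -1.29 ± 0.13 (homodimer, edgeR adjusted p = 1.7e-06), -1.27 ± 0.13 (TCF4, 1.1e-06), -1.27 ± 0.13 (TCF12-labelled, 8e-07) and -0.81 ± 0.13 (TCF3-labelled, 7e-05). The induced monomer was lower by less (-0.37 ± 0.13, edgeR adjusted p = 0.045), a call that was lost in 9 of the alternatives tried. The remaining targets passed in few comparisons. Mxi1, a MYC antagonist, was higher in the induced monomer (0.32 ± 0.11, edgeR adjusted p = 0.038). Ankrd37 was higher in the TCF12-labelled libraries (0.90 ± 0.27, 0.021), where sample 1 was at 6.30 CPM and the others at 4.10 and 3.31 CPM. That call was lost without sample 1 (0.62, edgeR adjusted p = 0.073). Higd1a, a mitochondrial protein, passed in no line, and its highest value, 94.4 CPM in the same sample 1, was beyond the range of all others (35.9 to 53.4 CPM).

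**Figure D3:**
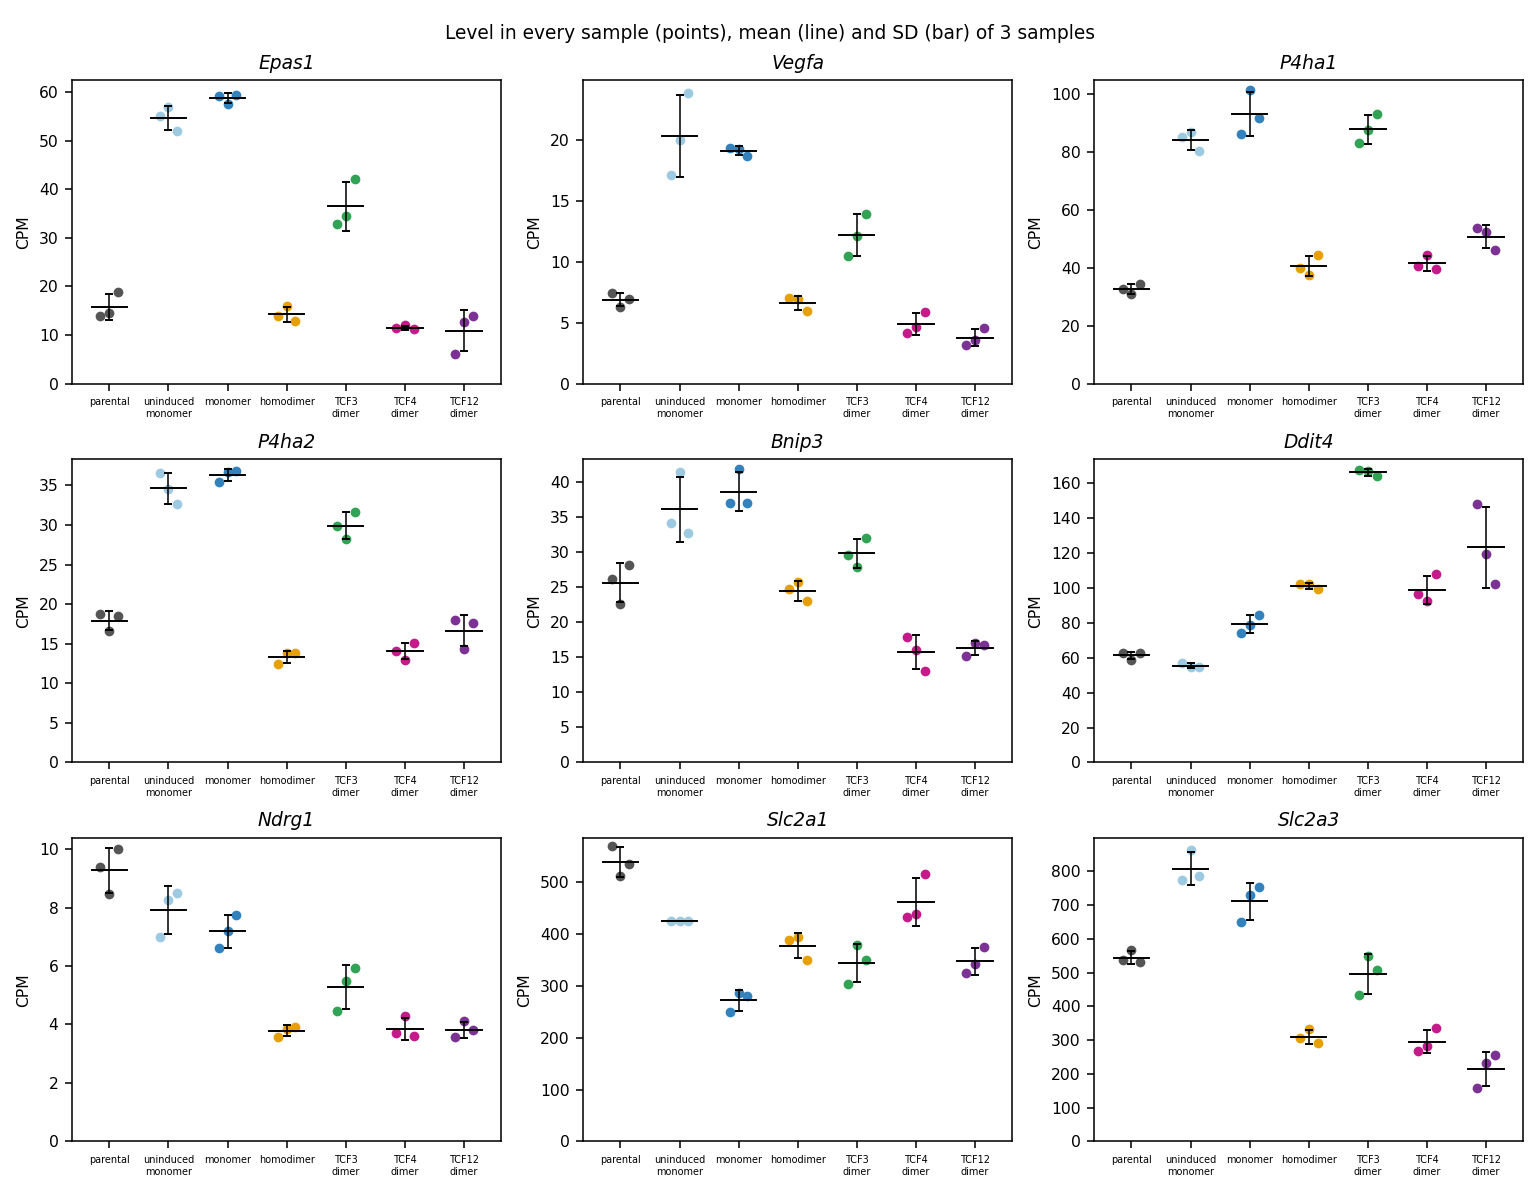
CPM of 9 genes in each sample (points), with the mean (line) and SD (bar) of the 3 samples in each of the 7 groups. Ddit4 is above all parental and uninduced samples in every induced group, while Ndrg1 and Slc2a1 have their highest means in the parental samples.

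Both glucose transporters changed across the groups, in different ways. Slc2a1, which encodes the widely expressed transporter GLUT1, was at 569, 512 and 535 CPM in the parental samples, 425, 424 and 425 CPM in the uninduced monomer and 249, 287 and 280 CPM in the induced monomer. It was lower in every line but the TCF4 dimer, whose samples (433, 438 and 516 CPM) overlapped with the parental range. The log2 fold changes were -0.34 ± 0.09 (uninduced monomer, edgeR adjusted p = 0.010), -0.99 ± 0.09 (induced monomer, 1.9e-07), -0.51 ± 0.09 (homodimer, 0.00071), -0.65 ± 0.09 (TCF3-labelled, 2.1e-05), -0.63 ± 0.09 (TCF12-labelled, 3.8e-05) and -0.22 ± 0.09 (TCF4, 0.13). Without sample 1 labelled TCF12 dimer the TCF4 value was -0.22 with an edgeR adjusted p of 0.014. The call in the uninduced monomer was lost without parental sample 1.

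Slc2a3 encodes GLUT3, a high-affinity transporter. It was at 532 to 566 CPM in the parental samples, 775 to 864 CPM in the uninduced monomer and 651 to 753 CPM in the induced monomer. The homodimer (291 to 333 CPM), TCF4 dimer (268 to 335 CPM) and TCF12-labelled libraries (158, 231 and 255 CPM) were below all parental samples. The log2 fold changes were 0.57 ± 0.13 (uninduced monomer, edgeR adjusted p = 0.0044), 0.38 ± 0.13 (induced monomer, 0.048), -0.82 ± 0.13 (homodimer, 0.00036), -0.88 ± 0.13 (TCF4, 0.00012) and -1.34 ± 0.14 (TCF12-labelled, 5.3e-07). Per kilobase of exon, Slc2a1 made up 67.1% ± 1.8 (SD, n = 3) of the 2 transporters in the parental samples. Its share was lowest in the induced monomer, at 44.1% ± 0.7, followed by the uninduced monomer at 52.1% ± 1.5 and the TCF3-labelled libraries at 58.9% ± 0.3, and it was 76.4% ± 0.5 in the TCF4 dimer line.

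The 14 glycolytic enzymes, which carry glucose to pyruvate, moved by small amounts. In both states of the monomer line 6 of 14 were higher and 0 lower (10.5% and 10.8% of all tested genes were higher). They were Pfkl, Pfkm and Pfkp, the 3 phosphofructokinases at the committed step, with Aldoa, Pgk1 and Pgam1. The largest changes were those of Aldoa (0.53 ± 0.14, edgeR adjusted p = 0.011, uninduced; 0.52 ± 0.14, 0.012, induced) and Pgk1 (0.50 ± 0.08, 0.00015; 0.52 ± 0.08, 9.5e-05). Aldoa, the main aldolase, was at 936 to 960 CPM in the parental samples, 1267 to 1438 CPM in the uninduced and 1270 to 1432 CPM in the induced monomer. Pgk1, which makes the first ATP of the pathway, was at 615 to 643 CPM in the parental samples against 852 to 925 and 880 to 934 CPM. For both genes the monomer line did not overlap with the parental samples. The primitive endoderm markers were higher in the same groups, and their part in the enzyme levels was not tested.

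In the homodimer line 0 of 14 enzymes passed (4.81% of all tested genes were higher and 4.02% lower). Without sample 1 labelled TCF12 dimer 4 were higher and 1 lower (20.4% of all tested genes called in either direction). In the TCF3-labelled libraries 4 were higher (16.3% of all tested genes were higher): Hk1 (0.39 ± 0.11, edgeR adjusted p = 0.013), Pfkp (0.30 ± 0.08, 0.010), Aldoc (0.32 ± 0.11, 0.035) and Pgk1 (0.39 ± 0.08, 0.0010). Without sample 1 labelled TCF12 dimer, 8 were higher and 2 lower there (46.5% of all tested genes called in either direction). Hk1, a hexokinase of most adult tissues, was at 29.3 to 31.2 CPM there and at 22.8 to 23.6 CPM in the parental samples. Aldoc lies on chromosome 11 (78322968 to 78327781, plus strand). In the TCF4 dimer line Pfkp (-0.28 ± 0.09, edgeR adjusted p = 0.036) and Aldoc (-0.62 ± 0.12, 0.00097) were lower, with Aldoc at 9.73 to 12.3 CPM against 15.2 to 17.5 CPM in the parental samples. In the TCF12-labelled libraries Hk2 (-0.46 ± 0.11, edgeR adjusted p = 0.0047) and Pfkp (-0.32 ± 0.09, 0.0093) were lower, and Pfkp was tightly grouped at 33.7 to 34.2 CPM. Hk2, the hexokinase that made up 87.4% to 92.9% of the Hk1 and Hk2 level per kilobase in the group means, was at 102, 140 and 157 CPM in these libraries against 180 to 186 CPM in the parental samples.

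Gapdh, which is often used as a reference gene, did not pass the test against the parental samples in any line (2211 to 2991 CPM), apart from 3989 CPM in sample 1 labelled TCF12 dimer. Without that library it was higher by 0.22 in the uninduced monomer (edgeR adjusted p = 0.00067). Eno1 did not pass either. Neither did Gpi1 (314 to 557 CPM) and Tpi1 (479 to 820 CPM), the isomerases of glucose 6-phosphate and of the triose phosphates, in both of which sample 1 labelled TCF12 dimer was the highest. Without it both changed across the groups (edgeR adjusted p = 7.9e-07 and 1e-09). Reads of Eno1 may be shared with the near-identical copy Eno1b, which was counted at 375 to 713 CPM, so Eno1 is uncertain. Pkm, at 3885 to 5237 CPM the most abundant member in counts, changed across the groups (edgeR adjusted p = 0.021) but in no single comparison with the parental samples.

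Sample 1 labelled TCF12 dimer was above both other samples of its group for 12 of the 14 enzymes, at 0.686 to 1.72 times their mean over all 14. The summed enzyme level was 17799 CPM in that sample and 12272 to 12772 CPM in the other 2, which lay below all parental samples (13245 to 13444 CPM). Of the 37 tested members, 21 (56.8%) were above both other samples, against 44.7% of all tested genes, and 14 (37.8%) were below both, against 46.8%. Among all 38 members the median exonic length was 3467 bases for the 21 above and 5896 bases for the 15 below. Aldoa, 1 of the 21, has no length and was left out of the median. Lengths were not compared over all tested genes. Without this library, 9 of the 14 enzymes were lower with the TCF4 dimer and 4 in the TCF12-labelled libraries. Of all tested genes, 28.1% and 30.3% were then called in either direction, so the 4 are not read as a trait of the enzymes. In each state of the monomer line 10 enzymes were higher, where 36.8% (uninduced) and 35.2% (induced) of all tested genes were called in either direction.

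**Figure D4:**
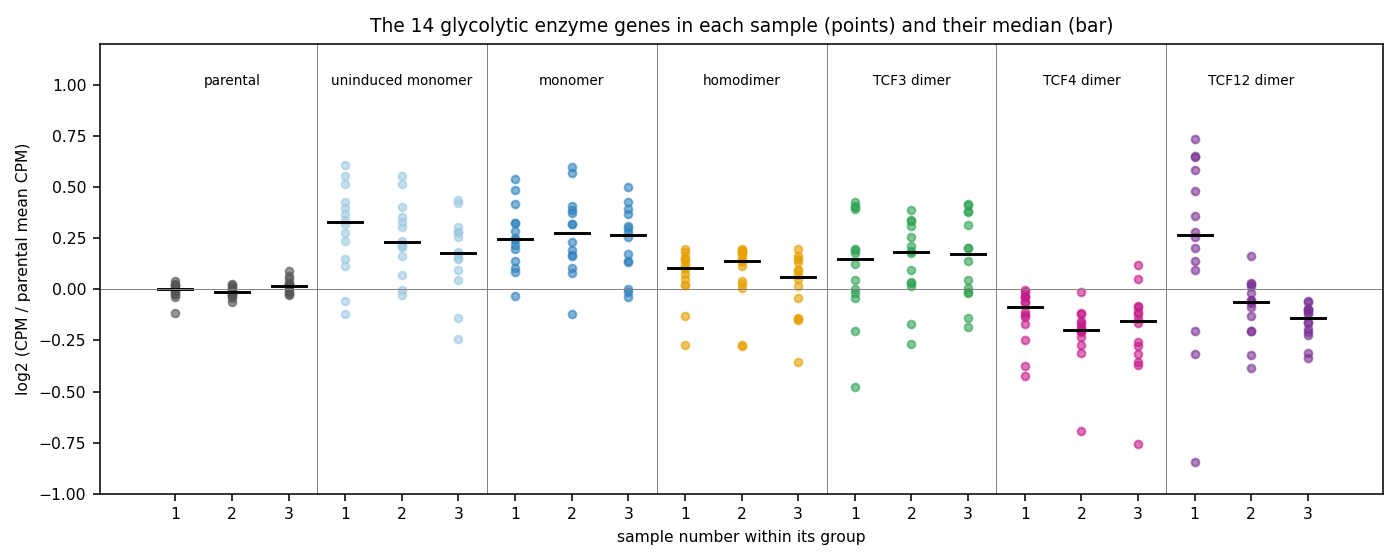
Log2 ratio of each of the 14 glycolytic enzymes (points) to its parental mean in each of the 21 samples, with the median of the 14 as a bar. Both states of the monomer line lie above 0, the TCF4 dimer samples lie mostly below 0, and sample 1 of the TCF12-labelled libraries stands above samples 2 and 3.

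The bifunctional enzymes Pfkfb3 and Pfkfb4 set the level of fructose 2,6-bisphosphate, the activator of phosphofructokinase. Pfkfb3 was lower in the TCF12-labelled libraries (-0.88 ± 0.21, edgeR adjusted p = 0.0045), at 4.41, 11.7 and 11.6 CPM against 15.5 to 18.6 CPM in the parental samples. Without sample 1, the lowest, the value was -0.58 (edgeR adjusted p = 0.00021). Pfkfb4 was higher in the TCF3-labelled libraries (0.45 ± 0.15, edgeR adjusted p = 0.028).

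Of the 6 genes of pyruvate and lactate handling, 2 were lower in the homodimer and 1 in the TCF3-labelled libraries. The TCF4 and TCF12-labelled libraries had 3 lower each, and 1 was higher in the latter. Of all tested genes, 4.02%, 12%, 5.67% and 11.5% were lower in that order of groups. In the TCF12-labelled libraries 15.5% of all tested genes were higher. The single calls among these 6 genes are not read as a trait of this role group. Pdk1, the kinase that shuts pyruvate dehydrogenase, was at 163, 200 and 199 CPM in the parental samples, 220 to 239 CPM in the uninduced monomer, 133 to 143 CPM in the homodimer, 100 to 127 CPM in the TCF4 and 103 to 126 CPM in the TCF12-labelled libraries. It was higher in the uninduced monomer (0.31 ± 0.10, edgeR adjusted p = 0.030) and lower in the homodimer (-0.45 ± 0.10, 0.0042), TCF4 (-0.71 ± 0.10, 3.5e-05) and TCF12-labelled libraries (-0.69 ± 0.10, 2.9e-05). Its relative Pdk3 was higher in the TCF12-labelled libraries (0.26 ± 0.08, edgeR adjusted p = 0.020). Pdk3 made up 54.9% ± 3.6 (SD, n = 3) of the 2 kinases per kilobase there and 51.2% ± 3.8 in the TCF4 dimer line, against 38.7% ± 3.5 in the parental samples and 30.2% ± 0.4 in the uninduced monomer.

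The monocarboxylate transporters carry lactate and pyruvate. Slc16a1 (MCT1) was lower in all 4 dimer lines, by 0.19 to 0.36 on the log2 scale, at 163 to 202 CPM against 223 to 231 CPM in the parental samples with no overlap. The weakest of these calls was that of the TCF3-labelled libraries (-0.19 ± 0.06, edgeR adjusted p = 0.025), which was lost in 8 of the alternatives tried. Slc16a3 (MCT4), the lactate exporter of glycolytic cells and a hypoxia target, was lower in the TCF4 (-0.48 ± 0.10, edgeR adjusted p = 0.0034) and TCF12-labelled libraries (-0.38 ± 0.10, 0.011). It was at 119 to 130 CPM and at 163, 122 and 117 CPM in these libraries, against 166 to 181 CPM in the parental samples. Ldha and Ldhb, the lactate dehydrogenase subunits, did not pass against the parental samples in any line. Without sample 1 labelled TCF12 dimer, Ldha was lower in all 4 dimer lines, from -0.36 in the TCF4 (edgeR adjusted p = 1e-06) to -0.19 in the homodimer (0.0062), and Ldhb was lower in the TCF12-labelled libraries (-0.46, 3.8e-07) and the induced monomer (-0.37, 1.6e-06). Ldha made up 79.0% to 87.6% of the 2 subunits per kilobase in the group means.

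Within the monomer line, 3 members differed between the samples with and without doxycycline, 1 higher and 2 lower, where 1.52% of all tested genes were higher and 0.475% lower. The count was 6 without sample 1 labelled TCF12 dimer (6.17% of all tested genes called), and 1 without sample 3 of the induced monomer (185 of 14577 tested genes called). Ddit4 was higher (0.51 ± 0.10, edgeR adjusted p = 0.0067), and Slc2a1 (-0.64 ± 0.09, 0.00026) and Slc16a1 (-0.24 ± 0.06, 0.045) were lower. The Slc2a1 samples did not overlap, at 424 to 425 CPM without and 249 to 287 CPM with doxycycline. The Slc16a1 call was lost in 21 of the alternatives tried. The Ddit4 call was lost without sample 3 of the induced monomer. Effects of the drug and of the induced protein cannot be told apart in this line, and the parental samples received the drug as well. Epas1, Vegfa, P4ha1, P4ha2 and Bnip3 did not pass in this comparison, with differences of -0.10 to 0.15 on the log2 scale.

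For several members the result depended on the control. Against the uninduced monomer line, P4ha1 was lower in the homodimer (-1.05 ± 0.09, edgeR adjusted p = 3.3e-08), TCF4 (-1.02 ± 0.09, 3.1e-08) and TCF12-labelled libraries (-0.73 ± 0.09, 1.8e-06), where it was higher against the parental samples. Epas1 in the TCF3-labelled libraries likewise went from 1.21 ± 0.18 against parental to -0.58 ± 0.17 (edgeR adjusted p = 0.015), and Vegfa there from 0.82 ± 0.16 to -0.75 ± 0.14 (0.00048). P4ha1 in the TCF3-labelled libraries, at 1.43 ± 0.09 against parental (edgeR adjusted p = 7.4e-10), was at 0.06 ± 0.08 against the uninduced line (0.64). Against this control the counts of members higher and lower were 3 and 14 in the homodimer (22.8% of all tested genes called in either direction), 5 and 13 in the TCF3-labelled (28.9%), 4 and 23 in the TCF4 (32.3%) and 4 and 17 in the TCF12-labelled libraries (37.0%). Ddit4 kept its direction, at 0.87 ± 0.10 in the homodimer (edgeR adjusted p = 2.5e-06), 0.84 ± 0.10 in the TCF4 (2.5e-06), 1.15 ± 0.10 in the TCF12-labelled (3.4e-08) and 1.58 ± 0.10 in the TCF3-labelled libraries (1.3e-09). Slc2a3 and Ndrg1 were lower in all 4 dimer groups against the uninduced line, by 0.70 to 1.91 and by 0.59 to 1.08.

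**Figure D5:**
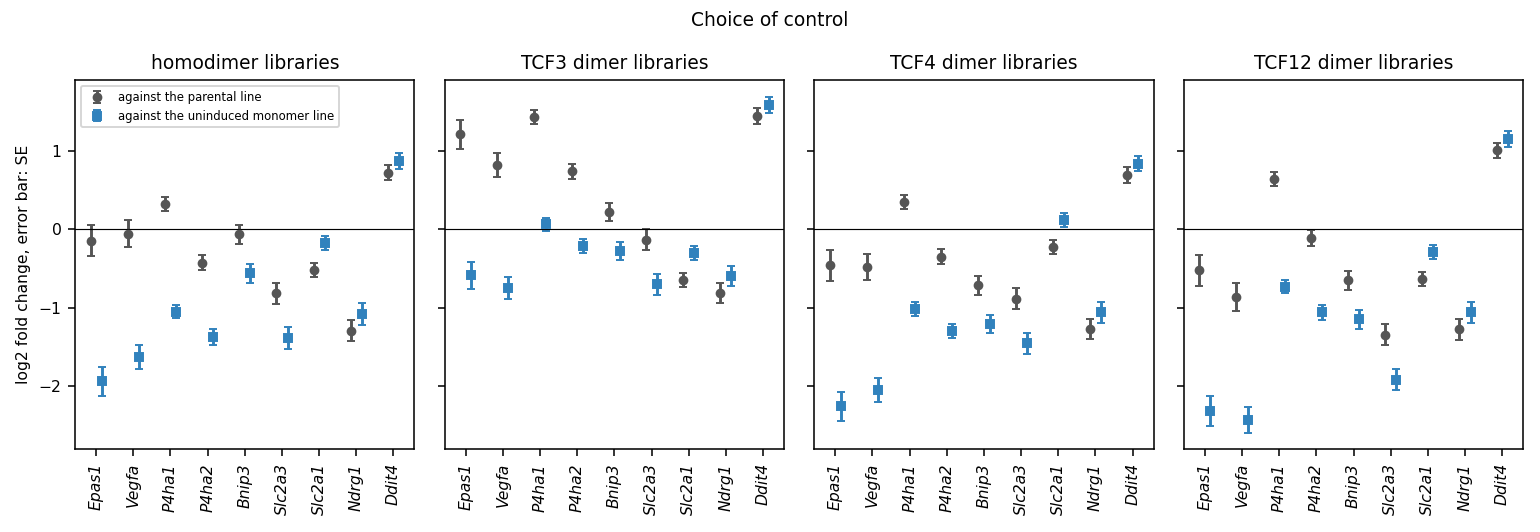
Log2 fold change (points, bars are SE) of 9 genes in the 4 dimer groups against the parental line (grey circles) and against the uninduced monomer line (blue squares). P4ha1 lies above 0 against the parental line and below 0 against the uninduced line in the homodimer, TCF4 and TCF12-labelled libraries, while Ddit4 lies above 0 against both.

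The 3 heterodimer groups together differed from the homodimer in 5 members, 3 higher and 2 lower, where 7.99% of all tested genes were higher and 6.04% lower. P4ha1 (0.49 ± 0.07, edgeR adjusted p = 0.00010), P4ha2 (0.52 ± 0.08, 0.00017) and Ddit4 (0.32 ± 0.08, 0.0097) were higher, and Slc16a3 (-0.36 ± 0.08, 0.0044) and Bnip3 (-0.31 ± 0.10, 0.035) lower. In none of the 5 did the 9 heterodimer samples stay apart from the 3 homodimer samples. The contrast averages 3 unlike groups. For P4ha1, P4ha2 and Ddit4 the TCF3-labelled libraries were the highest of the 3, and the TCF4 samples overlapped with the homodimer samples. These calls are therefore not read as traits shared by the heterodimers. The count was 18 without sample 1 labelled TCF12 dimer (28.9% of all tested genes called), and 3 without homodimer sample 2 or 3. Of all tested genes, 1305 were called without homodimer sample 2 and 1365 without homodimer sample 3, in place of 2007.

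The heterodimer groups differed among themselves in 18 members (26.0% of all tested genes called), in 24 without sample 1 labelled TCF12 dimer (40.1%) and in 31 without sample 3 of that label (7219 of 14454 tested genes called). The TCF3-labelled libraries stood apart. Between the TCF3-labelled and TCF4 libraries 16 members differed (19.7% of all tested genes), 15 of them higher in the former (11.8%). Between the TCF3-labelled and TCF12-labelled libraries 15 differed (18.8%), 14 of them higher in the former (9.71%). Between the TCF4 and TCF12-labelled libraries only Slc2a1 (0.41 ± 0.09, edgeR adjusted p = 0.021) and Aldoc (-0.48 ± 0.11, 0.029) passed, where 3.24% of all tested genes were called. The largest difference was that of Epas1, at 1.67 ± 0.18 between TCF3-labelled and TCF4 (edgeR adjusted p = 2.7e-06) and 1.73 ± 0.19 between TCF3-labelled and TCF12-labelled libraries (3e-06).

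Other genes of the same pathways were counted from lists that exclude the members. Of 32 further glycolysis genes 27 were tested, and of 40 further hypoxia genes 38. In the uninduced monomer 7 of the glycolysis genes (25.9%) were higher and 2 (7.41%) lower, and in the induced monomer 8 (29.6%) and 2, to be read against the shares of all tested genes given with the member counts above (10.5% and 9.43%, 10.8% and 9.22%). Hkdc1, a hexokinase-like gene, was at 3.82 to 6.76 CPM in the parental samples and at 21.8 to 29.1 CPM in the monomer line in both states (2.13 ± 0.19, edgeR adjusted p = 1.6e-07, uninduced). Fbp2, a fructose bisphosphatase of gluconeogenesis, was higher by 2.42 ± 0.39 (edgeR adjusted p = 0.00017) from a level of 0.218 to 0.650 CPM. A count of 3 corresponded to 0.309 to 0.331 CPM in the parental samples, so Fbp2 was near the limit of detection there. Mpc1, a subunit of the mitochondrial pyruvate carrier, was higher by 1.26 ± 0.25 (edgeR adjusted p = 0.0011). Of the glycolysis list, 10 (37.0%) were higher and 2 lower in the TCF3-labelled libraries (16.3% of all tested genes higher), 6 (22.2%) and 2 in the TCF12-labelled (15.5% higher), 1 and 1 in the TCF4 and 0 and 0 in the homodimer libraries.

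Of the further hypoxia genes, 13 (34.2%) were higher and 1 lower in the uninduced monomer, 12 (31.6%) and 1 in the induced monomer and 13 (34.2%) and 4 in the TCF3-labelled libraries, where 10.5%, 10.8% and 16.3% of all tested genes were higher. There were 3 higher (7.89%) and 2 lower in the homodimer, 4 (10.5%) and 2 in the TCF4 and 7 (18.4%) and 5 (13.2%) in the TCF12-labelled libraries. These lie nearer to the shares of all tested genes (4.81%, 7.18% and 15.5% higher, and 11.5% lower in the last). Bnip3l, the relative of Bnip3, was at 121 to 126 CPM in the parental samples, 193 to 222 CPM in the monomer line and 205 to 211 CPM in the TCF3-labelled libraries. Loxl2, a collagen cross-linking oxidase, was higher in the same 3 groups (0.90 ± 0.12, edgeR adjusted p = 1.4e-05, uninduced; 1.26 ± 0.11, 1.5e-07, induced; 1.13 ± 0.11, 3.6e-07, TCF3-labelled). Lox, its relative, was higher in the heterodimer groups, by 3.13 ± 0.29 in the TCF3-labelled (edgeR adjusted p = 1.5e-07), 2.91 ± 0.30 in the TCF12-labelled (6.7e-07) and 1.31 ± 0.34 in the TCF4 libraries (0.014), from 0.542 to 1.01 CPM in the parental samples. Stc1, a secreted glycoprotein, was the only gene of this list that changed with doxycycline in the monomer line (1.63 ± 0.32, edgeR adjusted p = 0.0076), where it went from 0.627 to 0.879 CPM up to 1.80 to 3.12 CPM. It was also higher than parental in the homodimer (1.64 ± 0.30, edgeR adjusted p = 0.00090) and TCF3-labelled libraries (1.59 ± 0.29, 0.00036).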

How the data were processed

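RNA-seq of 21 embryoid body samples was analysed from the deposited tables, which hold raw counts per gene symbol, not normalised. Per the submitters' processing notes, FastQC, TopHat2 and HTSeq were used with mm10/GRCm38. Versions, annotation, strand setting and the treatment of multiply aligned reads are not given in the sources used here. Among the 21 files, 18 had 25 symbols turned into dates, so rows were joined by position. The groups come from the labelled genotype and treatment. The members, lists and tests were chosen with earlier results of these data known.

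All samples entered 1 fit in edgeR 4.0.16 (limma 3.58.1, R 4.3.3): TMM factors, filterByExpr (count 10, total 15; 14311 genes kept), quasi-likelihood F test, Benjamini-Hochberg adjustment over all tested genes, threshold 0.05. SEs were derived from the F statistic. CPM was computed from the deposited counts and TMM-scaled library sizes. The script was tested on simulated data. Lengths (the union of all annotated exons of a gene), coordinates and chromosomes are from GENCODE M21 by symbol. Aldoa matches 2 gene IDs and has none. Intervals were not computed, and the floor of 3 counts covers counting error only. Named genes were, per role group, the called members with the largest span over groups, and per comparison the 3 higher and 3 lower with the largest change; all 38 are accounted for. Alternatives were DESeq2 1.42.0, limma voom with sample quality weights, other scaling, filters and control, the replicate block, thinned counts and leaving out each sample. Samples with the same replicate number were at most weakly alike: deviations from group means correlated by 0.0214 on average over 63 same-numbered pairs and by -0.0102 over 126 others.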

Additional observations from a re-analysis of the deposited data

Results flagged for a closer look

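For 6 members the change against the parental samples was called in opposite directions in 2 induced lines (edgeR's quasi-likelihood test, adjusted p under 0.05). These are 16.2% of the 37 tested members, against 3.52% of all 14311 tested genes (504). The difference between the 2 lines passed the test in all 504, so that test adds nothing to the 2 calls. Slc2a3 was higher in the induced monomer and lower in the TCF12-labelled libraries, a log2 difference of 1.73 ± 0.14 (SE). Vegfa differed between the same 2 groups by 2.33 ± 0.16. Bnip3 differed by 1.30 ± 0.12 between the induced monomer and the TCF4 dimer line, and P4ha2 by 1.44 ± 0.10 between the induced monomer and the homodimer. Pfkp differed by 0.63 ± 0.08 between the TCF3-labelled and TCF12-labelled libraries, and Aldoc by 0.94 ± 0.11 between the TCF3-labelled and TCF4 libraries. Each pair shares the parental samples as the control. The edgeR adjusted p-values of the 6 differences ranged from 2.6e-09 (P4ha2) to 3.8e-05 (Pfkp).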

How the results depend on the processing

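The number of members called moved with how the spread was estimated. The share of all tested genes called moved as well. With limma voom and sample quality weights it was 25 in the uninduced monomer, 17 in the homodimer, 24 in the TCF3-labelled and 27 in the TCF4 libraries, 7 for induction and 18 for heterodimers against homodimer, where 40.2%, 23.0%, 48.5%, 30.1%, 6.55% and 31.3% of all tested genes were called. With only the groups compared it was 23, 17, 24 and 24 in the same 4 comparisons, 9 in the TCF12-labelled libraries, 6 for induction, 3 for heterodimers against homodimer and 11 among heterodimers, where 38.1%, 23.4%, 49.1%, 29.7%, 6.11%, 5.20%, 9.24% and 6.57% of all were called. With no filter on low counts the homodimer had 5 (4.07% of all). With the uninduced line as control, the homodimer had 17 and the TCF4 line 27.

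Leaving out each sample in turn gave 26 to 35 members across the groups, 10 to 22 in the uninduced monomer, 10 to 24 in the induced monomer, 6 to 14 in the homodimer, 10 to 23 in the TCF3-labelled, 9 to 25 in the TCF4 and 14 to 22 in the TCF12-labelled libraries, 1 to 6 for induction, 3 to 18 for heterodimers against homodimer and 15 to 31 among heterodimers. Sample 1 labelled TCF12 dimer gave the largest moves (homodimer 14, TCF3-labelled 23, TCF4 25, induction 6, heterodimers against homodimer 18). The shares of all tested genes called without it were 20.4%, 46.5%, 28.1%, 6.17% and 28.9% in that order. The induced monomer count was 11 without parental sample 1, 10 without parental sample 2, 10 without monomer sample 1 and 11 without monomer sample 3, which also left 1 for induction. The count among heterodimers was 31 without TCF12-labelled sample 3, and the contrast with the homodimer 3 without homodimer sample 2 or 3. The numbers of all tested genes called in these settings moved as well and are given with the results above.

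Replicate numbers are shared between groups, and 12 of 21 samples correlated best with their own among the 3 numbers. The correlation between same-numbered samples was small on average (0.0214), so a weak pairing is not excluded. Fitted with a block for replicate number, counts were 29 across groups, 16, 17, 8, 15, 14 and 17 in the 6 comparisons with the parental samples (uninduced monomer, monomer, homodimer, TCF3, TCF4, TCF12), 3 for induction, 5 for heterodimers against homodimer and 18 among heterodimers. Of all tested genes, 7226 were called across groups with the block and 7250 without it. In the 6 comparisons with the parental samples, in the same order, 2845, 2863, 1262, 4092, 1828 and 3853 of 14311 were called with the block. For induction 264 were called, for heterodimers against homodimer 1972 and among heterodimers 3717.

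Over 41 single-gene values and 1252 alternatives, 1170 kept direction and call, 78 kept direction only and 4 reversed, all with the uninduced line as control, an alternative added after seeing the data: P4ha1 in the homodimer (-1.05), TCF4 (-1.02) and TCF12-labelled libraries (-0.73), and Epas1 in the TCF3-labelled libraries (-0.58). The tally covers these 41 values only. Vegfa in the TCF3-labelled libraries was not among them, and it also changed sign with this control, as given above. The causes were not tested. Adm was limited by depth.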
